A study of Chlamydomonas reinhardtii with 6 samples.

Results

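A set of 5 antioxidant genes of the unicellular green alga Chlamydomonas reinhardtii was followed in a knockout of CMD1 (cmd1 KO) and in wild type (WT) cells, namely CAT1, FSD1, MSD1, GPX5 and GSTS1. They were chosen by identifier as genes of the defence against superoxide, hydrogen peroxide and singlet oxygen, 5 of the 17736 gene models in the table, and their names were supplied with that list. The study asked how loss of CMD1, a relative of the TET dioxygenases that act on methylated DNA in animals, altered gene expression. RNA was sequenced from 3 biological replicates of cmd1 KO and 3 of WT. Both genotypes carried the CC125 background. Both had been kept in acetate medium at 25 °C and 20 µmol photons per m2 per s, and both were then put in high salt medium and illuminated at 300 µE. The sources used here do not give how the knockout was made, how many mutant lines stand behind its 3 replicates or how long the exposure lasted. CMD1 itself was not analysed here, so the genotype labels rest on the sample titles.

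Strong light makes reactive oxygen in the chloroplast. Electrons that leak from photosystem I reduce oxygen to superoxide, and superoxide dismutases turn that into hydrogen peroxide. FSD1 is the iron superoxide dismutase, an enzyme of the chloroplast, and MSD1 is a manganese superoxide dismutase. CAT1 is a catalase, which splits hydrogen peroxide into water and oxygen. Excited chlorophyll of photosystem II also passes energy to oxygen and forms singlet oxygen. GPX5, a glutathione peroxidase homologue that reduces peroxides, and GSTS1, a sigma-class glutathione S-transferase that conjugates reactive electrophiles, are known in Chlamydomonas as genes whose transcripts increase on exposure to singlet oxygen.

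All 5 genes passed the filter on low values (an average of 1 FPKM or more over the libraries). FPKM are counts scaled by gene length and by the total of the library. The raw counts of the 5 ran between 433 and 14008 per library. The counting error was therefore small, at most 4.81% for a single value, and covers sampling of reads only. Library totals ran between 38875025 and 47869886 counts. The libraries numbered 3 stood apart from those numbered 1 and 2 in both genotypes, so they are given separately throughout. Nothing in the labels says what set replicate 3 apart. The scaling touches every value, since the typical gene took a smaller part of the library total in replicates 1 and 2 of cmd1 KO. The TMM factors (trimmed mean of M-values) were 0.511, 0.485 and 1.38 in cmd1 KO replicates 1, 2 and 3 and 1.31, 1.30 and 1.72 in WT replicates 1, 2 and 3. The median log2 difference of the 10878 tested genes between cmd1 KO and WT in replicates 1 and 2 was -0.07 with TMM scaling, which sets the typical gene near 0, and -1.46 with library sizes alone. Changes below are given relative to the typical gene. For the 5 genes in replicates 1 and 2 the direction with library sizes alone stands beside them.

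In replicates 1 and 2 the singlet-oxygen genes GPX5 and GSTS1 rose in cmd1 KO relative to the typical gene, to 3.04 and 3.01 times their WT means, while FSD1 fell to 0.432 of its WT mean (TMM-scaled means of 2 libraries per genotype). With library sizes alone FSD1 was still lower, but GPX5 and GSTS1 did not pass the test. The sizes also depended on the filter. In edgeR with TMM scaling the log2 differences were 1.60 for GPX5, 1.58 for GSTS1 and -1.21 for FSD1. With a filter at 5 FPKM they were 1.13, 1.12 and -1.68. In replicate 3, where each genotype had 1 library, cmd1 KO held 0.907 of the WT level for FSD1, 0.878 for GSTS1 and 1.59 times it for GPX5. Over all 6 libraries edgeR called none of the 5, nor any other of the 10878 tested genes, while DESeq2 called GPX5.

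**Figure D1:**
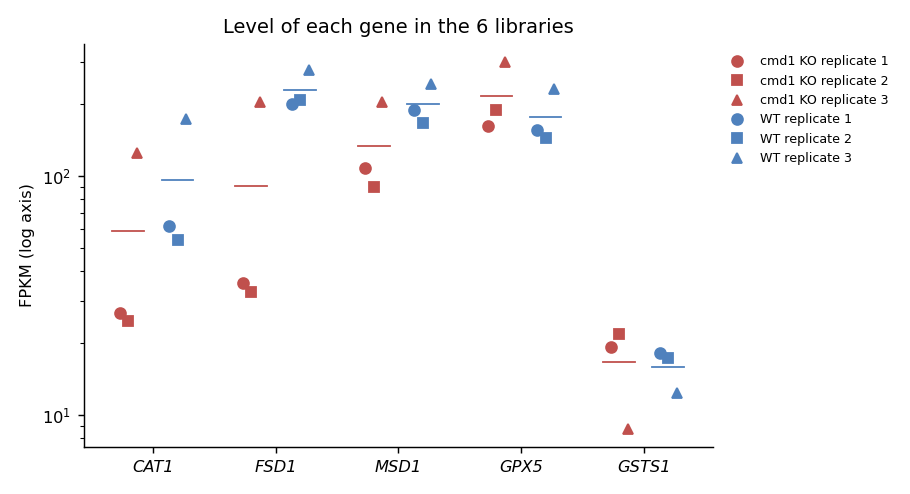
The FPKM of each gene (log axis) is plotted for the 3 cmd1 KO libraries (red) and the 3 WT libraries (blue), with the shape giving the replicate number and the line the mean of 3. FSD1 stood at 35.5 and 32.6 FPKM in cmd1 KO replicates 1 and 2, far under every other FSD1 value, and GSTS1 was the only one of the 5 that was lowest in replicate 3 of both genotypes.

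Of the superoxide dismutases, FSD1 (Cre10.g436050.v5.5, chromosome 10 from 2474544 to 2475753, assembly v5.5) differed most. It stood at 35.5, 32.6 and 204 FPKM in cmd1 KO replicates 1, 2 and 3, against 199.8, 208 and 278 FPKM in WT replicates 1, 2 and 3. The low values belonged to cmd1 KO replicates 1 and 2 alone; cmd1 KO replicate 3 lay between WT replicates 1 and 2, so the genotypes overlapped in FPKM. As TMM-scaled CPM, counts scaled by library but not by length, FSD1 was at 84.2, 81.4 and 181 in cmd1 KO and at 187, 197 and 199 in WT, which did not overlap. The WT values were alike, with a coefficient of variation of 3.41% over 3 replicates in TMM-scaled CPM. Within replicates 1 and 2 FSD1 fell in cmd1 KO with a log2 value of -1.21 (SE 0.14, adjusted p = 4.07e-09, edgeR quasi-likelihood test), lower in both pairs. Library sizes alone gave -2.60 (SE 0.15, adjusted p = 2.54e-12). In TMM-scaled CPM cmd1 KO replicate 3 held 0.907 of WT replicate 3. The genotype effect in replicate 3 differed from that in replicates 1 and 2 by 1.07 on the log2 scale (SE 0.25, edgeR interaction test, adjusted p = 0.000824).

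MSD1 (Cre02.g096150.v5.5, chromosome 2 from 3892614 to 3894846) was less variable. Its level was 108, 90.4 and 204 FPKM in cmd1 KO replicates 1, 2 and 3 and 189, 167 and 244 FPKM in WT replicates 1, 2 and 3. In FPKM each cmd1 KO library was under the WT library of its number, and the genotypes overlapped through cmd1 KO replicate 3. In TMM-scaled CPM the order turned: MSD1 was at 309, 272 and 218 in cmd1 KO and at 213, 190 and 210 in WT, with cmd1 KO replicate 3 only just above the highest WT value. Within replicates 1 and 2 the log2 difference was 0.53 with TMM scaling (SE 0.14, adjusted p = 0.00126 in edgeR) and -0.86 with library sizes alone (SE 0.14, adjusted p = 1.38e-05), so its direction depended on the scaling. Without cmd1 KO replicate 1 the TMM value was 0.43 with an adjusted p of 0.0504 in edgeR, and with a filter at 5 FPKM it was 0.067 (adjusted p = 0.65). The difference between replicate 3 and replicates 1 and 2 was -0.48 (SE 0.25, adjusted p = 0.107, edgeR interaction test), and -0.57 without WT replicate 1 (adjusted p = 0.0425).

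The ratio of the dismutases within a library needs no scaling between libraries. FSD1 over MSD1 in FPKM was 0.328, 0.360 and 0.999 in cmd1 KO replicates 1, 2 and 3, and it was 1.05, 1.25 and 1.14 in WT replicates 1, 2 and 3. The iron enzyme's transcript thus stood at about the level of MSD1 in 4 of the 6 libraries and well under it in cmd1 KO replicates 1 and 2.

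CAT1 (Cre09.g417150.v5.5, chromosome 9 from 7906771 to 7911464) varied more with the replicate number than with genotype. It was at 26.6, 24.6 and 125 FPKM in cmd1 KO replicates 1, 2 and 3, and at 61.7, 53.7 and 174 FPKM in WT replicates 1, 2 and 3. Replicate 3 was the highest library of either genotype, at 4.88 times the level of replicates 1 and 2 in cmd1 KO and 3.02 times in WT (geometric means of FPKM). The typical gene was also higher per library in replicate 3, by 3.01 times in cmd1 KO and 1.30 times in WT. In TMM-scaled CPM CAT1 was at 107, 105 and 189 in cmd1 KO and at 98.2, 86.5 and 213 in WT, and the genotypes overlapped. Within replicates 1 and 2 the log2 difference was 0.20 with TMM scaling (SE 0.15, adjusted p = 0.224 in edgeR), which did not pass, and -1.19 with library sizes alone (SE 0.15, adjusted p = 2.48e-07). Its effect in replicate 3 differed from that in replicates 1 and 2 by -0.37 with TMM scaling (SE 0.25, adjusted p = 0.216, edgeR interaction test) and by 0.70 with library sizes alone (adjusted p = 0.0196).

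GPX5 (Cre10.g458450.v5.5, chromosome 10 from 5436288 to 5438246) was the only one of the 5 that lay higher in cmd1 KO in each of the 3 pairs of equal number both with TMM scaling and in FPKM. It stood at 162, 189 and 300.05 FPKM in cmd1 KO replicates 1, 2 and 3, against 157, 144 and 232 FPKM in WT replicates 1, 2 and 3. In FPKM the cmd1 KO values of replicates 1 and 2 lay between the WT values, so the genotypes overlapped. In TMM-scaled CPM they did not: GPX5 was at 374, 460 and 259 in cmd1 KO and at 142, 132 and 162 in WT. The means were 364 ± 101 and 146 ± 15.2 TMM-scaled CPM (SD, n = 3 each). Within replicates 1 and 2 GPX5 rose by 1.60 on the log2 scale (SE 0.14, edgeR adjusted p = 9.1e-12), higher in both pairs, but with library sizes alone the difference was 0.21 (SE 0.14, adjusted p = 0.166). In replicate 3 the pair's log2 ratio was 0.67 with TMM scaling, with 91.8% of tested genes lower, and 0.37 with library sizes alone. The genotype effect in replicate 3 was 0.93 less on the log2 scale, a difference of -0.93 (SE 0.25, adjusted p = 0.00345, edgeR interaction test), whereas library sizes alone gave 0.15 (adjusted p = 0.605).

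GSTS1 (Cre16.g688550.v5.5, chromosome 16 from 3658366 to 3660578) had the lowest level of the 5 in every library. It was at 19.1, 21.9 and 8.74 FPKM in cmd1 KO replicates 1, 2 and 3 and at 18.04, 17.3 and 12.3 FPKM in WT replicates 1, 2 and 3. In TMM-scaled CPM it was at 47.8, 57.6 and 8.16 in cmd1 KO, against 17.8, 17.2 and 9.30 in WT. Replicate 3 was the lowest library of each genotype, and there cmd1 KO lay under WT, so the genotypes overlapped on both scales. Within replicates 1 and 2 GSTS1 rose by 1.58 on the log2 scale with TMM scaling (SE 0.16, adjusted p = 1.36e-10 in edgeR), and library sizes alone gave 0.20 (SE 0.16, adjusted p = 0.244). The genotype effect in replicate 3 differed from that in replicates 1 and 2 by -1.78 on the log2 scale (SE 0.29, adjusted p = 1.95e-05, edgeR interaction test), and by -0.70 with library sizes alone (adjusted p = 0.0441).

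**Figure D2:**
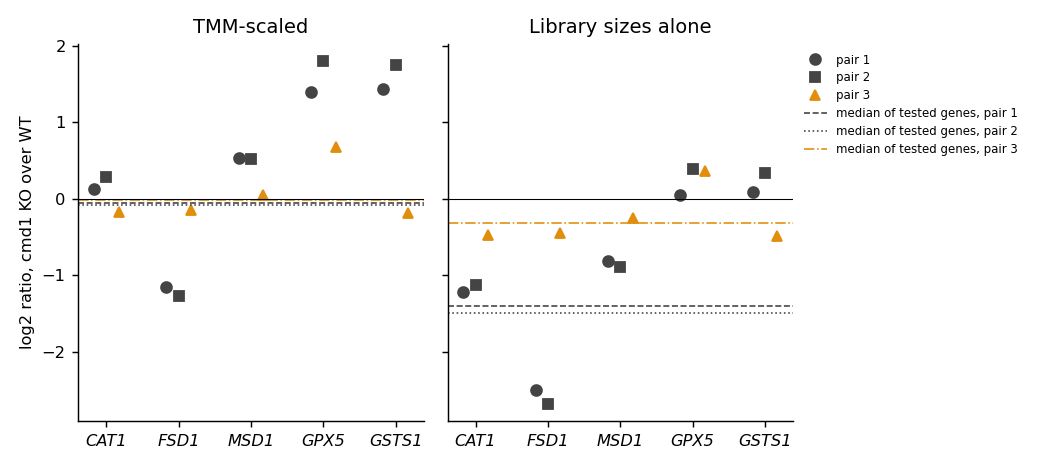
The log2 ratio of cmd1 KO over WT in each same-numbered pair is plotted per gene with TMM scaling (left) and library sizes alone (right), and the lines give the median of the 10878 tested genes in each pair. FSD1 is lowest and GPX5 and GSTS1 are highest in pairs 1 and 2, while the medians of pairs 1 and 2 lie at -1.40 and -1.48 on the right. Within a pair the scaling shifts every gene by nearly the same amount, so the order of the genes could not differ between the panels.

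GPX5 and GSTS1 kept a near fixed proportion in replicates 1 and 2 of both genotypes. GPX5 over GSTS1 in FPKM was 8.47 and 8.65 in replicates 1 and 2 of cmd1 KO and 8.68 and 8.33 in those of WT. In replicate 3 it was 34.3 in cmd1 KO and 18.9 in WT. GPX5 and FSD1, in contrast, changed places: FSD1 over GPX5 was 0.219, 0.172 and 0.679 in cmd1 KO replicates 1, 2 and 3, and it was 1.28, 1.45 and 1.19 in WT replicates 1, 2 and 3. FSD1 had the higher FPKM in all 3 WT libraries, and GPX5 had it in all 3 cmd1 KO libraries. MSD1 over GPX5 was also lower in every cmd1 KO library, at 0.669, 0.478 and 0.680, than in WT, at 1.21, 1.16 and 1.05. The ratios of a member to CAT1 or to GSTS1 all overlapped between the genotypes. How often ratios of other gene pairs are free of overlap was not tested. These ratios were set side by side as a description, since 3 libraries against 3 cannot give an exact two-sided permutation p under 0.1.

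As a share of the summed FPKM of the 5 genes, GPX5 made up 46.1%, 52.8% and 35.6% in cmd1 KO replicates 1, 2 and 3, and 25.04%, 24.4% and 24.7% in WT replicates 1, 2 and 3. The summed FPKM itself was 352, 359 and 842 in cmd1 KO replicates 1, 2 and 3 and 626, 590.3 and 939.7 in WT replicates 1, 2 and 3. The larger GPX5 share in cmd1 KO replicates 1 and 2 thus went with a smaller sum, since the mean FPKM of GPX5 there was 1.17 times that in WT replicates 1 and 2. FSD1 made up 10.1%, 9.08% and 24.2% in cmd1 KO, against 31.9%, 35.3% and 29.5% in WT. MSD1 held a similar part of the sum in both genotypes, 30.8%, 25.2% and 24.3% in cmd1 KO and 30.3%, 28.3% and 25.9% in WT. The remainder was CAT1, at 6.87% to 14.8% in cmd1 KO and 9.10% to 18.5% in WT, and GSTS1, at 1.04% to 6.10% in cmd1 KO and 1.31% to 2.93% in WT.

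**Figure D3:**
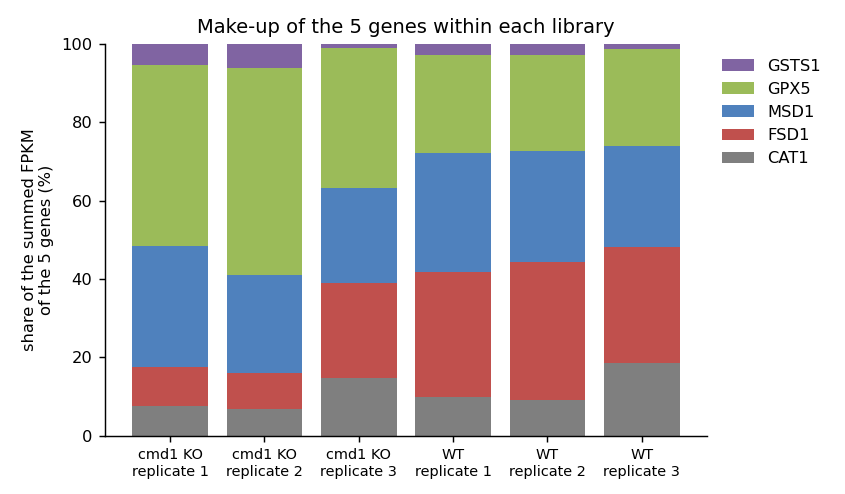
Each bar divides the summed FPKM of the 5 genes in a library into the share of each gene, in percent, with the cmd1 KO libraries left of the WT libraries. GPX5 takes 35.6% to 52.8% of the cmd1 KO bars and 24.4% to 25.04% of the WT bars, and FSD1 is narrowest in cmd1 KO replicates 1 and 2.

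Set against all tested genes, the count of changed members in replicates 1 and 2 was near the background. With TMM scaling 3 of the 5 rose (MSD1, GPX5, GSTS1), 1 fell (FSD1) and 1 did not pass (CAT1) (edgeR, adjusted p under 0.05). Among the 10878 genes tested 34.3% rose and 37.8% fell in the same test, 72.2% in all. With library sizes alone 0 of the 5 rose, 3 fell (CAT1, FSD1, MSD1) and 2 did not pass, and the split over all genes was 679 higher and 8610 lower, against 3736 and 4117 with TMM scaling. The median log2 difference of the 5 was 0.53 with TMM scaling, against -0.07 over all tested genes. By size rather than by call, GPX5 and GSTS1 stood high among all genes in replicates 1 and 2. With TMM scaling 91.6% and 91.5% of tested genes had a lower log2 difference, and with library sizes alone 91.6% and 91.4%. FSD1 had 21.2% of genes under it on both scales. The scaling moves all genes by nearly the same amount there, so the likeness of these percentages was fixed in advance and is no check. The ranks did depend on the filter. With TMM scaling and the filter at 5 FPKM, 87.8% and 87.4% of the 4869 genes tested then lay under GPX5 and GSTS1. FSD1 had 11.6% of them under it, nearer the low end than with the filter at 1 FPKM. The interaction test marked 3 of the 5, against 50.7% of all tested genes. Its value was positive for 1 (FSD1), against 27.3% of genes, and negative for 2 (GPX5 and GSTS1), against 23.4%. It takes its spread from replicates 1 and 2, since replicate 3 had 1 library per genotype.

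Over all 6 libraries edgeR called 0 of the 5 genes, as it called 0% of the 10878, with 1952 genes at an unadjusted p under 0.05. The log2 differences were 1.32 for GPX5 (SE 0.34, adjusted p = 0.263) and 1.36 for GSTS1 (SE 0.71, adjusted p = 0.331). They were -0.75 for FSD1 (SE 0.40, adjusted p = 0.341), 0.38 for MSD1 (SE 0.30, adjusted p = 0.492) and 0.013 for CAT1 (SE 0.47, adjusted p = 0.993). The biological coefficient of variation was 0.558 over the 6 libraries and 0.130 in replicates 1 and 2, so the spread that these differences are set against was far larger with replicate 3. The library that decided the calls was cmd1 KO replicate 3: without it GPX5 rose by 1.52 (adjusted p = 0.00767 in edgeR), GSTS1 by 1.84 (adjusted p = 0.0132) and FSD1 had -1.23 (adjusted p = 0.00904), while MSD1 (adjusted p = 0.0816) and CAT1 (adjusted p = 0.585) did not pass. In that fit 18.1% of all tested genes were called higher and 20.7% lower. DESeq2 on the 6 libraries called GPX5, with a log2 difference of 1.42 (adjusted p = 0.0103), and none of the other 4, against 3.79% of tested genes called higher and 2.54% lower by DESeq2. With library sizes alone edgeR over the 6 libraries gave 0.28 for GPX5, 0.048 for GSTS1 and -1.34 for FSD1. MSD1 and CAT1 turned there, to -0.59 and -0.73, and none of the 5 passed. In TMM-scaled CPM the 3 cmd1 KO values lay wholly above the 3 WT values for 2 of the 5 (MSD1 and GPX5) and wholly below for 1 (FSD1), against 9.43% and 13.6% of all tested genes. In FPKM as deposited 0 of the 5 were free of overlap, against 1.08% of genes above and 29.7% below. Counted by pair with TMM scaling, MSD1 and GPX5 were higher in cmd1 KO in every pair, as were 25.6% of tested genes, and FSD1 was lower in every pair, as were 28.7%. In FPKM GPX5 was higher in every pair, as were 4.12% of tested genes, and CAT1, FSD1 and MSD1 were lower in every pair, as were 67.5%.

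**Figure D4:**
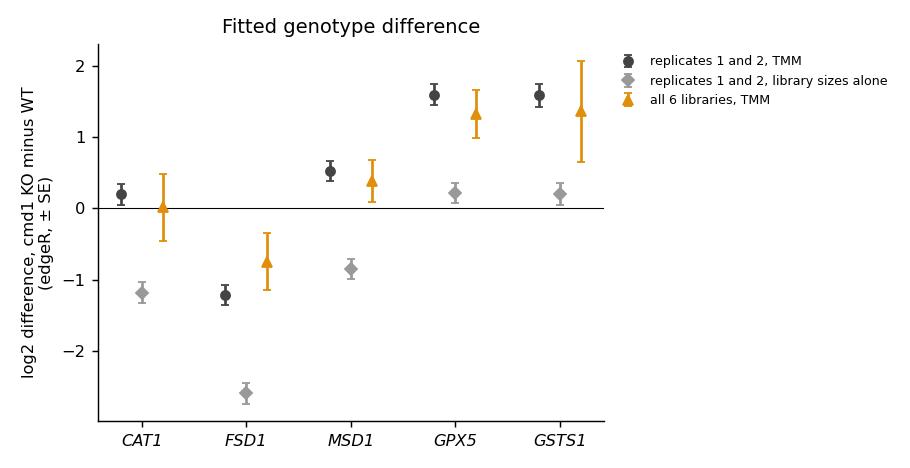
Points give the log2 difference of cmd1 KO minus WT fitted by edgeR, and bars its SE, within replicates 1 and 2 with TMM scaling (dark), within replicates 1 and 2 with library sizes alone (grey) and over all 6 libraries with TMM scaling (orange). GPX5 and GSTS1 stand at 1.60 and 1.58 within replicates 1 and 2 with TMM scaling and at 0.21 and 0.20 with library sizes alone, and their SE grows to 0.34 and 0.71 over 6 libraries.

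The authors' deposited table gave a log2 fold change of -1.90 for FSD1 (unadjusted p = 0.00633), -0.94 for CAT1 (unadjusted p = 0.00674) and -0.65 for MSD1 (unadjusted p = 0.0252). For GPX5 and GSTS1 the authors' deposited table gave 0.27 (unadjusted p = 0.198) and -0.02 (unadjusted p = 0.949). The median log2 fold change of all 17736 genes in the authors' deposited table was -1.22, so FSD1 lay under the typical gene there and the other 4 above it. The authors' deposited table placed 91.8% of genes under GPX5, 84.5% under GSTS1, 69.1% under MSD1, 59.5% under CAT1 and 26.9% under FSD1. Adjusted here by Benjamini-Hochberg over all 17736 genes, the p-values of the authors' deposited table passed 0.05 for none of the 5, the smallest being 0.0541 for CAT1 and FSD1.

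Among all tested genes, profiles closer to each member than those of its fellow members were common. Likeness was measured as the root mean square difference of log2 TMM-scaled CPM over the 6 libraries, after centring each gene on its own mean. Cre14.g623200 was nearest to CAT1 (0.068), Cre01.g047229 to FSD1 (0.035) and Cre06.g278256 to MSD1 (0.043). None of these identifiers has a name in the reference used. The nearest genes to GPX5 and GSTS1 lay at 0.060 and 0.054. Among the 5 themselves the closest profiles were those of MSD1 and GPX5, at 0.492, and 1547 tested genes were nearer to GPX5 than MSD1 was.

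The 5 genes lie apart on 4 chromosomes, with FSD1 and GPX5 both on chromosome 10, and 0 other gene models overlapped any of them in the v5.5 reference. The closest neighbours were 3 bases from FSD1, with a mean of 0.541 FPKM, and 5 bases from CAT1, listed at 0 FPKM in every library. The gene model on the lower-coordinate side of GPX5, 1746 bases away, had a log2 difference of 1.77 in replicates 1 and 2 (adjusted p = 4.84e-12 in edgeR), beside 1.60 for GPX5. The model on its other side, 54 bases away, had -0.43 (adjusted p = 0.0163). The tested neighbour of CAT1 had 1.04 (adjusted p = 1.15e-05), beside 0.20 for CAT1. Those of MSD1 had -1.33 (adjusted p = 2.1e-06) and -0.15 (adjusted p = 0.418), beside 0.53 for MSD1. No other neighbour of the 5 passed the filter on low values, and 34.3% of all tested genes rose and 37.8% fell in the same test. The neighbours have no names in the reference used.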

How the data were processed

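Total RNA was sequenced after Trizol extraction and a stranded library kit, per the labels' protocols. FastQC 0.11.5, Cufflinks 2.0.0 and TopHat2 are listed in the submitters' processing notes. The build, strand setting and counting tool: not given in the sources used here. Counts, as deposited, are raw read counts per gene. The file headers name the FPKM but do not say how they were made. For the 5 genes the deposited FPKM equalled the count over a fixed length per gene (1177 to 2061 bases) and over the library total, as computed here. The deposited log2 fold change, the deposited F statistic (a score) and the deposited unadjusted p-value belong to the comparison that the authors made between genotypes. An edgeR fit on library sizes with a term for replicate 3 matched the deposited log2 fold changes within 1.87e-05.

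Groups came from the sample titles. The tests here were edgeR 4.0.16 quasi-likelihood tests in R 4.3.3, two-sided, on raw counts with TMM factors. They were fitted to the 10878 genes averaging 1 FPKM or more and adjusted over all of them by Benjamini-Hochberg. An adjusted p under 0.05 was called. The SE of an edgeR value was not given by edgeR. It was computed as the absolute log2 difference over the square root of the F statistic of its test. The 3 fits were genotype over 6 libraries, genotype within replicates 1 and 2, and the interaction of genotype with replicate 3. Alternatives were limma 3.58.1, DESeq2 1.42.0, other scalings and filters, the replicate block and leaving out each library; the fits with a term for replicate 3 were added after the data were seen. The fits were tested on simulated data with few changed genes and no shift of replicate 3 shared by the genotypes. The simulated spread was near that of replicates 1 and 2. That test therefore does not cover the larger spread over the 6 libraries. Apart from the changed genes all simulated libraries shared the same mean profile. The shift of the typical gene between libraries, which TMM scaling takes out in these data, was thus not covered either. The replicates are biological, per the labels' protocols, which list WT and mutant together by number. The numbers were taken as pairs. The deviations of same-numbered libraries from their group means correlated at 0.530, 0.427 and 0.547. Replicates 1 and 2 were not told apart by this check, since the crossed correlations were 0.479 and 0.491. The pairing of numbers 1 and 2 therefore rests on the labels' listing and not on these correlations.

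The members and lists were chosen with earlier results of these data known. The 5 genes are named whatever their values, and the most alike gene is given by identifier for at most 2 members higher and 2 lower in cmd1 KO, in member order. The relatives of the 5 by protein and the promoter motifs foreseen in the plan were not analysed here. Of the 17736 identifiers, 17733 matched the v5.5 gene reference by locus tag, and it gives 0 symbols other than locus tags. Unused per-sample columns numbered 0. Plots were drawn with matplotlib 3.10.9.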

Additional observations from a re-analysis of the deposited data

Results flagged for a closer look

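In 3 genes the genotype ratio of the single replicate 3 pair lay outside the spread of replicates 1 and 2 by edgeR's interaction test with TMM scaling. With 1 library per genotype in replicate 3, the test takes its spread from replicates 1 and 2, whose biological coefficient of variation was 0.130 against 0.558 over all 6 libraries, so it does not measure how far such pairs vary in general. The log2 effect in replicate 3 minus that in replicates 1 and 2 was 1.07 for FSD1 (adjusted p = 0.000824), -0.93 for GPX5 (adjusted p = 0.00345) and -1.78 for GSTS1 (adjusted p = 1.95e-05). With library sizes alone the values were 2.14, 0.15 and -0.70, so the difference of GPX5 turned. Of all tested genes 50.7% passed the same test. What set replicate 3 apart was not tested.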

How the results depend on the processing

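Over 18 results and 210 comparisons with an alternative, 176 kept direction and call, or a count within 1.5 times. FSD1 kept its direction under every alternative run. Over 6 libraries the count of called genes was 688 with DESeq2 and ranged between 0 and 4229 when 1 library was left out, with 4229 reached without cmd1 KO replicate 3. GPX5 was called by DESeq2 at 1.42. CAT1 turned to -0.73 with library sizes alone, -0.31 with a mean of at least 5 FPKM, -0.92 and -0.94 with limma on log2(FPKM + 1) and log2(FPKM + 0.1), and -0.95 with a term for replicate 3 and library sizes alone. In the same order without the filter, MSD1 turned to -0.59, -0.64, -0.65 and -0.66. GSTS1 turned to -0.016 and -0.022 with limma and to -0.032 with a term for replicate 3 and library sizes alone. Leaving out 1 library gave -0.32 to 0.53 for CAT1, -1.23 to -0.54 for FSD1, 0.27 to 0.51 for MSD1, 1.13 to 1.52 for GPX5 and 0.93 to 1.84 for GSTS1.

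Within replicates 1 and 2 the filter at 5 FPKM left 3721 called genes of the 4869 tested then, against 7853 of 10878 with the filter at 1 FPKM. Library sizes alone gave -1.19 for CAT1, -0.86 for MSD1, 0.21 for GPX5 and 0.20 for GSTS1. The 5 FPKM filter gave -0.26 for CAT1, -1.68 for FSD1, 0.067 for MSD1, 1.13 for GPX5 and 1.12 for GSTS1. Leaving out 1 library gave 0.43 to 0.62 for MSD1. For the difference between replicate 3 and replicates 1 and 2, the 5 FPKM filter left 2797 called genes, and library sizes alone gave 0.70 for CAT1, 0.59 for MSD1 and 0.15 for GPX5. Leaving out 1 library gave -0.57 to -0.38 for MSD1. A change of scaling moved the 5 genes by nearly the same amount within replicates 1 and 2 and for that difference; over 6 libraries it moved them unequally, FSD1 to -1.34 and GSTS1 to 0.048 with library sizes alone. The 5 FPKM filter likewise moved the 5 genes by nearly the same amount within replicates 1 and 2. It did so too for the difference between replicate 3 and replicates 1 and 2. The cause of the other changes was not tested.

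With the replicate block, paired by number, 7748 genes were called within replicates 1 and 2 and 0 over 6 libraries, and no call of the 5 genes changed.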
